A study of Caenorhabditis elegans with 2 samples.

Results

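Many tRNA genes of Caenorhabditis elegans lie inside protein-coding genes, and 290 of the 612 nuclear tRNA genes in the Ensembl annotation of WBcel235 (ce11) fall wholly within the span of such a gene on either strand. These nested tRNA genes sat in 228 host genes. Membership was set by position alone and used no measured value, though the members and lists were chosen with earlier results of these data known. A nested gene was counted as occupied when a peak summit lay inside it or within 200 bp of either end. The other 322 tRNA genes, of which 3 overlap a protein-coding span in part, served for comparison.

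The peaks came from chromatin immunoprecipitation and sequencing (ChIP-seq) of DMD-8, a transcription factor of the DM domain family, which takes its name from Doublesex and MAB-3. Whole L4 larvae of strain OP775, 48.5 hours old and synchronised by L1 starvation following bleaching, carried the transgene wgIs775 with dmd-8 fused to TY1, EGFP and 3xFLAG and with an unc-119(+) marker, in an unc-119(tm4063) background. An antibody against GFP was used on sonicated chromatin from 2 biological replicates, which form the single group. Sex was not collected. The antibody was directed at the tagged protein made from the transgene, in all tissues together. A control list was not analysed here, so peaks of the tagged protein and any other peaks were not told apart. The lists hold 1537 peaks in the conservative set that rests on both replicates, with a median signal of 90.6. The list of replicate 1 alone holds 629 peaks and that of replicate 2 holds 545. The longer ranked lists, which also keep peaks that did not pass, hold 82083 peaks in replicate 1, 72371 in replicate 2 and 95232 with the replicates pooled. The signal is the peak caller's value per peak, as the authors deposited it, and it ranks peaks within a list only.

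tRNA genes are transcribed by RNA polymerase III from a promoter that lies inside the gene. TFIIIC binds the internal A box and B box, TFIIIB is placed just upstream of the gene and recruits the polymerase, and transcription ends at a run of T after the gene. A tRNA gene inside an intron is therefore a complete transcription unit of its own, whichever strand its host uses. Genomes hold many tRNA genes of identical sequence, and these copies differ only in what surrounds them.

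To show what a nested tRNA gene with its B box looks like, 5 genes of high conservative signal are printed, not the 5 highest, from the RefSeq sequence of WBcel235, with a match to the B box core GTTCNA in capitals. F15G9.t1 (chrX:9743589-9743660, plus strand) and F15G9.t2 (chrX:9743747-9743818, plus strand) are alanine tRNA genes in an intron of him-4, which encodes the extracellular matrix protein hemicentin. T28C12.t1 (chrV:6335398-6335469, plus strand) is a cysteine tRNA gene in an intron of T28C12.6. K06A4.t1 (chrV:9503562-9503633, plus strand) is an alanine tRNA gene in an intron of swt-5, a member of the SWEET sugar transporter family. C06G1.t1 (chrX:16634830-16634901, minus strand) is a histidine tRNA gene in an intron of C06G1.1.
F15G9.t1: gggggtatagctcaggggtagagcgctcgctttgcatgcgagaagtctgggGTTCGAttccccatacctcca
F15G9.t2: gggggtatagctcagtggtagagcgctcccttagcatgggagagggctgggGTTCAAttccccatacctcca
T28C12.t1: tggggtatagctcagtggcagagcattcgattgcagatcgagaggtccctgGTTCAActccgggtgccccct
K06A4.t1: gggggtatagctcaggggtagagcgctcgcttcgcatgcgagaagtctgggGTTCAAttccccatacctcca
C06G1.t1: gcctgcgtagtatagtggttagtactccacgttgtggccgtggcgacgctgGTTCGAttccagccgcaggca

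The core was searched as GTTCNA on the tRNA gene's own strand and was found in 279 of the 290 nested genes, or 96.2%. The share over the 612 tRNA genes was 96.1%, and 7.52% of 72-bp windows of the genome held the same letters on a given strand (14.5% on either strand). The match began a median of 53 bases from the 5′ end of the gene. A run of TTTT within 30 bp after the 3′ end was found in 288 nested genes, or 99.3%, against 98.9% of the 612 tRNA genes and 36.1% of 30-bp genome windows on a given strand. T15B12.t1, among the 12 nested genes of highest signal with 239.9, and Y69A2AR.t2, with 219.6, held no GTTCNA match, and 38 of the 41 nested genes without a pooled ranked summit held one. Both matches describe letters and not bound sites.

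In the conservative list, 181 of the 290 nested tRNA genes had a summit, a share of 62.4% with an exact 95% interval of 56.6% to 68.0%, against 59.6% of all 612 nuclear tRNA genes. Replicate 1's own list placed a summit at 133 nested genes, or 45.9%, against 44.0% of the 612. Replicate 2's own list placed one at 121 nested genes, or 41.7%, against 40.4% of the 612. Of the 322 tRNA genes outside protein-coding genes, 184 had a summit, or 57.1% with an interval of 51.5% to 62.6%. Their shares in the replicates' own lists were 42.2% and 39.1%. The nested share was thus higher in all 3 lists, by less than the counting intervals, which overlap. The difference was not tested. The intervals cover counting only, and tRNA genes that share a peak are not independent.

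For scale, 2.55% of the 19973 nuclear protein-coding genes had a conservative summit from 1000 bp upstream to 200 bp downstream of their 5′ end. The 181 nested genes accounted for 166 distinct peaks, of which 151 served 1 nested gene and 15 served a pair. These 166, of 1537 conservative peaks in all, made up 22 of the 100 of highest signal and 120 of the highest 500. The genes outside accounted for 167 distinct peaks. The median rank in the conservative list was 319 for occupied nested genes and 276.5 for occupied genes outside, so high rank was not particular to nested genes. The median width of the 166 peaks was 280 bp, against a median tRNA gene length of 72 bp.

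The signal at the occupied nested genes ran from 50.8 to 304.7 in the conservative list, with quartiles of 104.0 and 169.5 and a median of 133.7. The occupied genes outside had a median of 144.7 and a range of 63.2 to 346.3. In replicate 1's ranked list the nested genes with a conservative summit had a median signal of 70.4 and those without one 30.8. In replicate 2's ranked list the medians were 63.4 and 27.5. The replicates contributed to the conservative list, so these values describe how far the classes lie apart and support nothing.

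**Figure D1:**
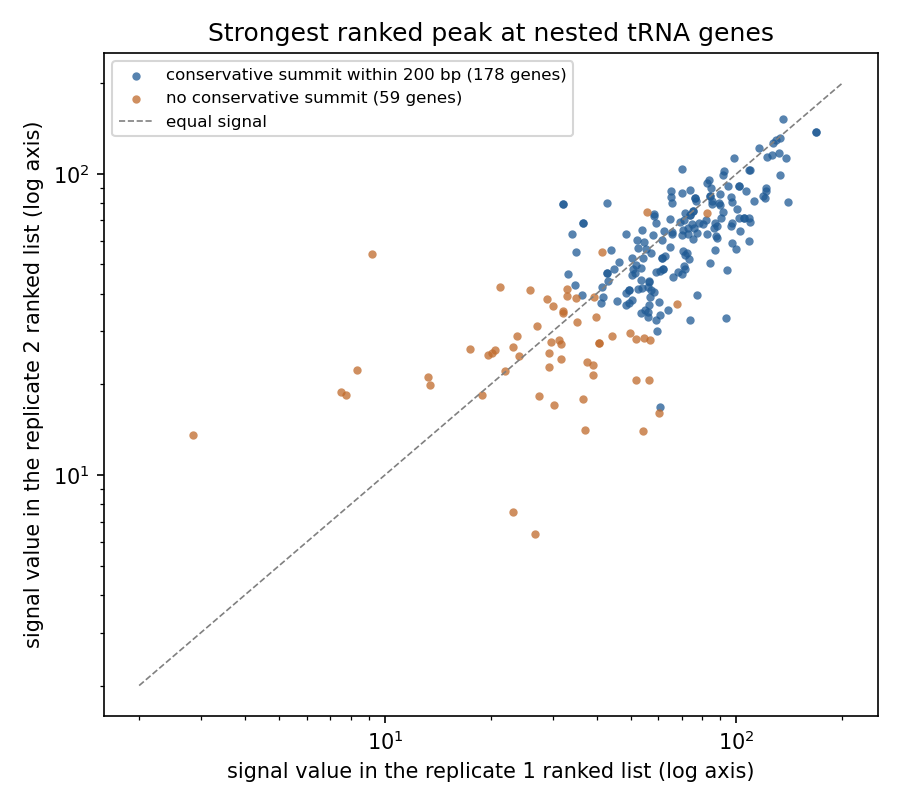
Signal value of the strongest ranked peak within 200 bp of each nested tRNA gene in replicate 1 (x axis, log scale) and replicate 2 (y axis, log scale), for the 237 nested genes with a peak in both ranked lists. Genes with a conservative summit (178, blue) lie mostly above the 59 without one (orange), and most points sit near the dashed line of equal signal.

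Across the 237 nested genes with a peak in both replicates' ranked lists, Spearman's rho between the replicates' signal values was 0.78, a description across genes that share libraries and in part share peaks. Among the 178 of these with a conservative summit it was 0.68, and among the 59 without one 0.28. The genes outside gave 0.76 over 236 genes. The median ratio of replicate 1 to replicate 2 was 1.12 for nested genes, and the signals of separate lists are not on a common scale.

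Of the 181 occupied nested genes, 96 were called in each replicate's own list too, and their median conservative signal was 166.5. Another 27 had one in replicate 1's list alone and 16 in replicate 2's alone, with a median of 114.2 over both sets. The remaining 42 had a summit in neither list, with a median of 92.1. The occupied genes thus ranged from sites called in each replicate to sites called with the replicates combined.

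The peaks of the 12 nested genes of highest signal ranked 118 or better in replicate 1's ranked list and 185 or better in replicate 2's. Both replicates contributed to the signal by which the 12 were picked, so their replicate ranks and signals are a description and support nothing. The peak of F15G9.t1 and F15G9.t2 had a signal of 304.7 in the conservative list, 168.1 in replicate 1 and 137.4 in replicate 2. These neighbouring genes share 1 peak, whose summit fell just past the 3′ end of F15G9.t1. F52C9.t1, a threonine tRNA gene in F52C9.5, followed with 299.7, and with 135.3 and 152.5 in the replicates.

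T28C12.t1, on the strand opposite to its host, had 267.6, with 129.7 and 129.0 in the replicates. C28G1.t1, a glutamate tRNA gene that touches an exon of C28G1.2, had 259.3, with 133.0 and 131.9. F41D9.t3, an asparagine tRNA gene in sulp-3, a gene of the sulfate permease family, had 250.5, with 138.2 and 113.1. In each of these both replicate signals lay above their list's median for occupied nested genes, which the choice by combined signal largely fixed.

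The next 6 lay between 238.8 and 249.6. They were F22G12.t1, a valine tRNA gene in F22G12.4 (249.6), E03E2.t1, a serine tRNA gene in the vesicular monoamine transporter gene cat-1 (248.7), and C37A2.t1, a cysteine tRNA gene in the cyclin E gene cye-1 (242.9). K11H3.t2, a serine tRNA gene in the potassium channel gene twk-48, had 240.1. T15B12.t1, a methionine tRNA gene in T15B12.1, had 239.9, and K06A4.t1 in swt-5 had 238.8. The 12 genes covered 8 isotypes and 11 hosts, and 6 of the 12 shared the strand of their host.

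**Figure D2:**
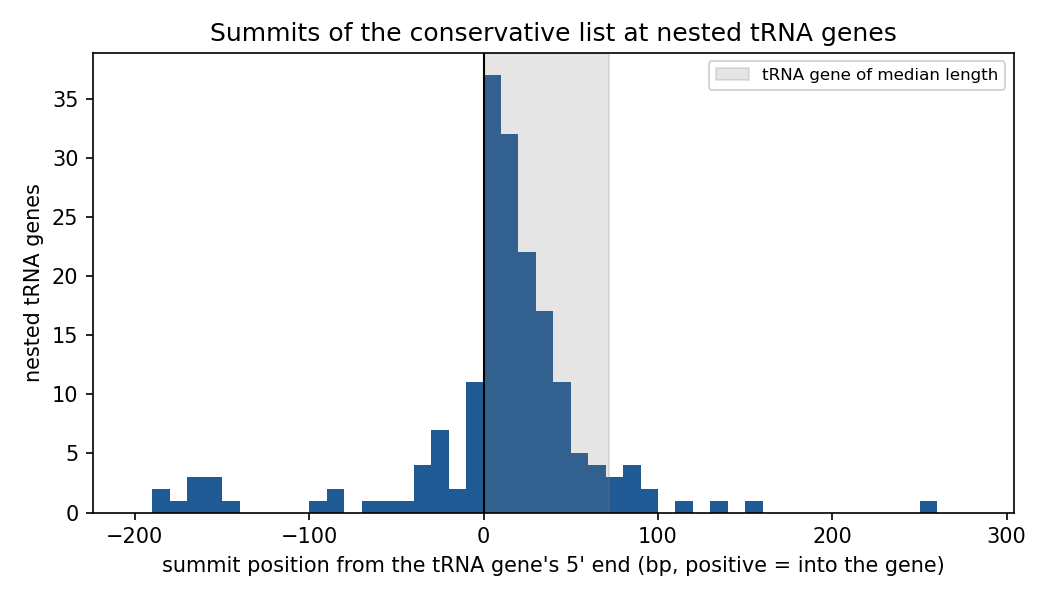
Position of the conservative summit relative to the 5′ end of each of the 181 occupied nested tRNA genes, read along the tRNA gene's strand in 10-bp bins (x axis, bp; y axis, number of genes). The shaded band is a tRNA gene of median length, 72 bp, and the highest bins lie in its first 20 bp.

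The summits sat on the tRNA genes themselves. Read along the tRNA strand, the median summit lay 14 bp inside the 5′ end, with quartiles of 1 and 32 bp and a range from 190 bp upstream to 253 bp into or past the gene. At 130 of the 181 genes (71.8%) the summit fell inside the gene, at 106 of them nearer its 5′ than its 3′ end. It fell upstream at 40 genes and downstream at 11, and a shared peak is counted at each of its genes. The start of the B box core lay a median of 39 bp downstream of the summit. In the replicates' own lists the median was 15 bp and 11 bp.

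Where a peak belonged to 1 nested gene, 120 of 151 summits (79.5%) were inside that gene and the median was 15 bp. The genes outside had a median of 20 bp. Nested genes on the strand of their host had a median of 13 bp and those on the opposite strand 16.5 bp. The position thus followed the strand of the tRNA gene for both orientations. Chromatin was sonicated, so a summit marks a position less finely than to a single base.

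The shares on the 2 relative strands were close. Of the 166 nested genes on the strand of their host, 102 had a conservative summit, or 61.4% with an interval of 53.6% to 68.9%. Of the 123 on the opposite strand, 78 had one, or 63.4% with an interval of 54.3% to 71.9%. The remaining nested gene had a host on each strand and also had a summit. The shares in the replicates' own lists were 44.0% and 41.0% for the host's strand and 48.8% and 43.1% for the opposite strand. The difference was smaller than the counting intervals in each list. The median conservative signal was 125.6 on the host's strand and 141.7 on the opposite strand.

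Almost all nested genes lay in introns, and 175 of 283 such genes had a summit, or 61.8%. The other 7 touched an exon of their host, always outside the coding sequence, and 6 of these had a summit, or 85.7% with an interval of 42.1% to 99.6%. The 6 were F02E11.t1 with a signal of 87.8, K02D7.t1 in grl-26 with 146.0, Y69A2AR.t2 in the spindle checkpoint gene mdf-2 with 219.6, W02G9.t2 with 125.3, K04A8.t2 in the lysosomal lipase gene lipl-4 with 126.6 and C28G1.t1 with 259.3. Y54G2A.t1 was the one without. With 7 genes, the share has an interval that contains that of the intronic genes.

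Occupancy showed no steady order along the host. With the host's length cut into 4 equal stretches, the shares from the first to the last were 65.2%, 57.5%, 63.9% and 63.9%. Occupied and unoccupied nested genes lay a median of 2304 bp and 2560 bp from the host's 5′ end. The introns that held them had median lengths of 464 bp and 595 bp. The median GC content of the 200 bp on either side was 38.8% for occupied and 36.2% for unoccupied nested genes, and that of the genes themselves 58.9% and 58.8%. Outside, the flanks had 36.0% and 32.8%.

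**Figure D3:**
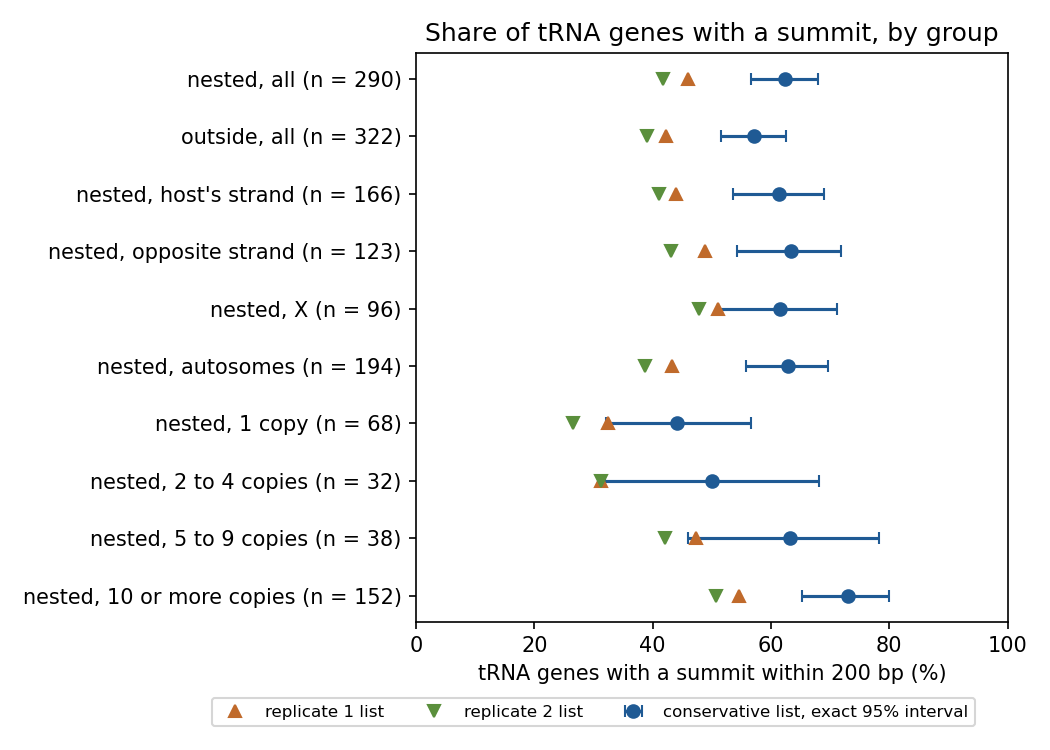
Percent of tRNA genes with a summit within 200 bp (x axis) for groups of nested genes and for the genes outside, in the conservative list (circles, with exact 95% intervals for counting) and in each replicate's own list (triangles). The single-copy nested genes have the lowest conservative share, 44.1%, and the nested genes with 10 or more copies the highest, 73.0%.

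The share of occupied nested genes differed with the number of annotated nuclear tRNA genes of identical sequence, here called copies. Other matches in the genome were not counted. The sequence of F33G12.t1 on II, counted as 1 copy, also occurs on I. Of the 68 nested genes with no other copy, 30 had a conservative summit, or 44.1% with an interval of 32.1% to 56.7%. With 2 to 4 copies 16 of 32 genes had one, with 5 to 9 copies 63.2% of 38 genes, and with 10 or more copies 73.0% of 152, with an interval of 65.2% to 79.9%. From fewest to most copies, replicate 1's own list gave 32.4%, 31.2%, 47.4% and 54.6%, and replicate 2's gave 26.5%, 31.2%, 42.1% and 50.7%. The intervals of the single-copy genes and of those with 10 or more copies did not overlap, but they cover counting only and take genes as independent. Some genes with 10 or more copies share a peak, and the difference was not tested.

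The genes outside did not show the same steps. Their shares were 44.0% for single copies, then 65.7%, 61.7% and 60% with growing copy number. Single-copy genes were the lowest class in both places. The sources used here do not give how reads that match several copies were handled, and its part in these shares was not tested. By B box core match, 177 of the 279 nested genes that held it were occupied (63.4%) and 4 of the 11 that did not (36.4%, interval 10.9% to 69.2%). The optimal list gave 62.4% and 54.5%. Outside, the conservative shares were 57.3% and 53.8%, and the genes without a match had the higher share in both replicates' own lists, 53.8% in each against 41.7% and 38.5%.

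Nested genes of identical sequence differed in whether a summit was called. The 290 nested genes had 120 distinct sequences, and 42 of these occurred at 2 or more nested genes, 212 genes in all. Every nested copy was occupied for 10 of the 42 sequences, no nested copy for 5, and some copies but not others for 27. Those 27 mixed families held 174 nested genes, 120 of them with a summit. The 3 largest mixed families were an isoleucine family with 7 of 13 nested copies occupied, a glycine family with 11 of 12 and a lysine family with 10 of 12. Calls within a family could differ at similar signal, as in the isoleucine family, where R11B5.t3 had a conservative summit with a pooled signal of 73.2 and Y119D3B.t1 had none with 81. Y119D3B.t1 did have a summit in the optimal list and in replicate 1's own list, but not in replicate 2's own list.

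Pairs of identical nested genes, occupied and unoccupied, are shown with 60 bases before the gene and 30 after, since only these flanks differ. The tRNA gene is in capitals and the sequence is that of RefSeq's WBcel235. The coordinates given for these pairs are those of the whole printed stretch, flanks included. The proline gene W09D6.t2 (chrIII:11066818-11066979, minus strand) lies in rsa-2, a gene of spindle assembly, and had a conservative signal of 169.8. Its copy R04D3.t3 (chrX:13307970-13308131, plus strand) in srxa-8, a serpentine receptor gene, had no conservative summit and signals of 39.4 and 39.1 in the replicates' ranked lists. Signals of the conservative list and of the replicates' lists are not on a common scale. The lysine gene K04C2.t3 (chrIII:6887698-6887860, minus strand) lies in brd-1, the ortholog of human BARD1, and had a conservative signal of 207.7. Its signals in the replicates' ranked lists were 121.4 and 87.8. Its copy W07G4.t1 (chrV:13026998-13027160, minus strand) in fmi-1, which encodes a Flamingo cadherin, had no conservative summit and signals of 37 and 14.1 in the replicates. The threonine gene Y39A1A.t1 (chrIII:10624712-10624873, minus strand) lies in the DNA damage checkpoint gene hpr-9 and had 196.9. Its copy F36D4.t2 (chrV:9407010-9407171, minus strand) in F36D4.4 had no summit in any of the 3 ranked lists.
W09D6.t2: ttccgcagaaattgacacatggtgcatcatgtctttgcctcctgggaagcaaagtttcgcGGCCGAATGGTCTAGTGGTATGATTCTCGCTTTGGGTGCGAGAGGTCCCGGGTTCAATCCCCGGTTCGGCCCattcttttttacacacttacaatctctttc
R04D3.t3: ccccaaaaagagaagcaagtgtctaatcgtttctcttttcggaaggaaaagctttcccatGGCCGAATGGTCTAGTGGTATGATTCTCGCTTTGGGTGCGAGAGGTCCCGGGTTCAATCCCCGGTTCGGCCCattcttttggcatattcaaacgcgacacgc
K04C2.t3: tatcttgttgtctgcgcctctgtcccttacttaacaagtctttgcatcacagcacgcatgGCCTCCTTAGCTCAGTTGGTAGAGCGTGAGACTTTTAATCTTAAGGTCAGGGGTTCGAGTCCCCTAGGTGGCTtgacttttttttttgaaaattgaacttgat
W07G4.t1: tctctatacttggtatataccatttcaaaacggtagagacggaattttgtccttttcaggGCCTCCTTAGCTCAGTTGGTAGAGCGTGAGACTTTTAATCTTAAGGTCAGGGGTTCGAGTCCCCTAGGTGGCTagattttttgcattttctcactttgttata
Y39A1A.t1: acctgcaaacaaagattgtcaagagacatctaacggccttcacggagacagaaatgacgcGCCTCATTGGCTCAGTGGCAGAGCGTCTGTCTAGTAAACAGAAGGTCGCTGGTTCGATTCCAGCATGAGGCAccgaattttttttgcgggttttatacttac
F36D4.t2: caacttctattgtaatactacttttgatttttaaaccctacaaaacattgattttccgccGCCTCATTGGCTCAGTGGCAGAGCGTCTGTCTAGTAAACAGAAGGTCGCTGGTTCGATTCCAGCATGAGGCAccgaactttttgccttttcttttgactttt

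The pairs were chosen for identical genes and for their calls, so they illustrate mixed families and show nothing of a cause. Over the 50 sequences with copies both inside and outside protein-coding genes, 149 of 217 nested copies (68.7%) and 143 of 236 outside copies (60.6%) had a summit. The nested copies had the higher share in 21 sequences, the outside copies in 19, and the shares were equal in 10. Matched for sequence, nested and outside genes thus did not part in a single direction.

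**Figure D4:**
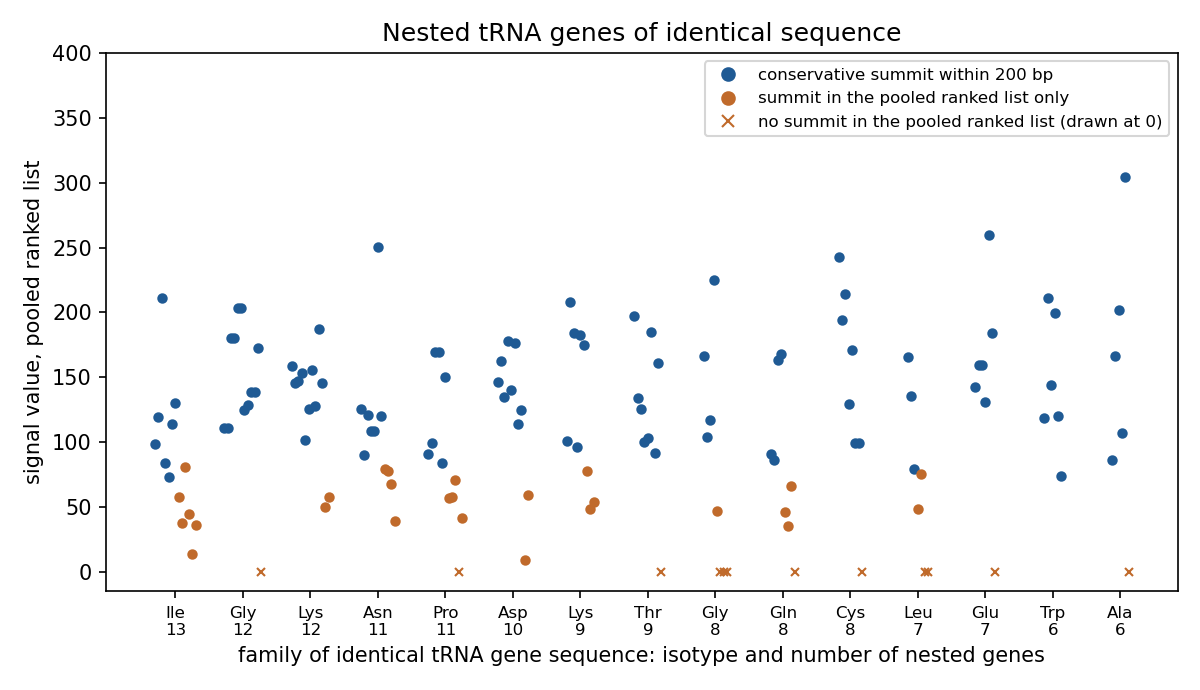
Signal value in the pooled ranked list (y axis) of each nested tRNA gene in the largest families of identical gene sequence (x axis, isotype with the number of nested genes). Blue points have a conservative summit, orange points a pooled ranked summit alone, and crosses at 0 stand for no such summit, and every family drawn except tryptophan's holds copies with and without a conservative summit.

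By isotype, the nested cysteine genes had the highest share, with 8 of 9 occupied (88.9%, interval 51.8% to 99.7%). Tryptophan genes followed with 6 of 7 (85.7%), glutamate genes with 10 of 12 (83.3%) and alanine genes with 12 of 15 (80.0%). The lowest shares were those of glutamine genes with 4 of 12 (33.3%, interval 9.92% to 65.1%) and tyrosine genes with 3 of 8 (37.5%). Lysine genes, the most numerous after glycine with 26 nested genes, had 18 occupied, or 69.2%. No isotype with 5 or more nested genes was fully occupied or fully unoccupied, and the intervals of the highest and lowest isotypes overlap.

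**Figure D5:**
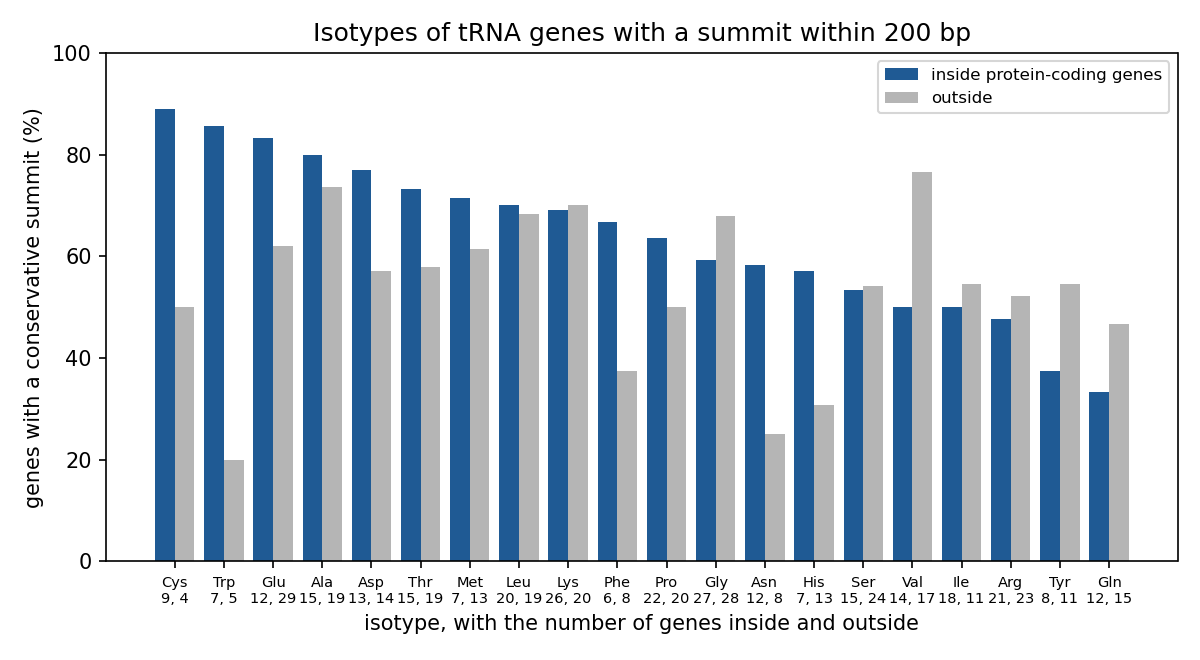
Percent of tRNA genes with a conservative summit (y axis, bars from 0) by isotype for nested genes (blue) and genes outside (grey), with the numbers of genes under each isotype (inside, outside). The nested shares run from 88.9% for cysteine to 33.3% for glutamine, and in 12 of the 20 isotypes drawn the blue bar is the taller.

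A family of 10 identical tryptophan genes had 6 nested and 4 outside copies. The 6 nested copies all had a conservative summit, with signals of 73.6, 118.6, 120.4, 144.3, 199.2 and 210.7. None of the 4 outside copies had a conservative or pooled ranked summit, and a ranked summit of 1 replicate lay at Y37E11AL.t1, with 33.6, and at C06E2.t1, with 23.4. This contrast was chosen after its values were seen, and it rests on 10 genes. Of the 50 sequences with copies in both places, the nested copies had the higher share in 21 and the outside copies in 19. Among the 19 was a glutamine family, with 0 of 3 nested and 2 of 2 outside copies occupied.

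Of the 228 hosts, 182 held 1 nested tRNA gene and 46 held 2 or more, 110 genes in all. Among the 46, all nested genes were occupied in 21, some in 18 and none in 7. In total 152 hosts (66.7%) had at least 1 occupied nested gene. Neighbouring tRNA genes within a host could thus differ, and 14 hosts with 3 or more nested genes show this in detail.

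All 3 nested genes were occupied in brd-1, in pix-1, in the peroxidasin gene pxn-1, in the serpentine receptor gene srv-16 and in the Rab GTPase-activating gene tbc-12. In pix-1 the lysine genes K11E4.t4, K11E4.t5 and K11E4.t6 had signals of 106.8, 187.1 and 145.3, each from its own peak. In brd-1, K04C2.t3 had 207.7, and K04C2.t1 and K04C2.t2 shared a peak of 138.3. In srv-16 an aspartate gene had 134.7 and a pair of glutamate genes shared a peak of 159.2.

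Occupancy was partial in deg-1, a degenerin channel gene, in nimk-1, in srxa-9 and in spe-9, a sperm gene needed for fertilisation, each with 2 of 3 nested genes, and in the potassium channel gene unc-58 with 1 of 3. The largest hosts were partial too. K01A12.3 held 5 nested genes, and its cysteine genes K01A12.t4 and K01A12.t5 shared a peak of 99.1 while the other 3 had no conservative summit. The apical junction gene ajm-1 held 5 glutamine genes, of which H08J11.t3 alone was occupied, with 168.1 in the conservative list and 97.1 and 68.4 in the replicates.

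H08J11.t3, H08J11.t4 and H08J11.t5 of ajm-1 have the same sequence. H08J11.t4 had a signal of 8.64 in replicate 1 and no ranked peak in replicate 2, and H08J11.t5 had 40.7 and 27.5. No nested gene was occupied in pash-1, which encodes the microRNA processing partner of Drosha, or in wrt-9, a hedgehog-related gene. The 3 glycine genes of pash-1 had no ranked summit in either replicate or in the pooled list. The 3 isoleucine genes of wrt-9 had pooled signals of 44.2, 13.3 and 36.1.

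The hosts' own promoters were seldom occupied apart from small RNA genes. A conservative summit lay in the promoter window of 17 hosts, or 7.46%, against 2.55% of all protein-coding genes. In C28G1.2 and grl-26 it was the peak of the nested gene itself. Of the other 15, 11 had a small RNA gene within 200 bp of the summit, 10 of them a tRNA gene. The 4 without one were K11H12.8, unc-115, C06B8.7 and F32B4.8, or 1.75% of hosts, against 2.01% of all protein-coding genes by the same count. Setting aside peaks near small RNA genes, the share of hosts with a promoter summit was near the background.

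By chromosome, the share of occupied nested genes was highest on III, with 32 of 42 (76.2%, interval 60.5% to 87.9%), and lowest on I, with 21 of 39 (53.8%, interval 37.2% to 69.9%). It was 61.3% on II, 61.8% on IV, 60.4% on V and 61.5% on X. Of the 96 nested genes on X, 59 had a summit, and of the 194 on autosomes 122 had one, or 62.9%. In the replicates' own lists X had 51.0% and 47.9% and the autosomes 43.3% and 38.7%, so the order of X and autosomes turned with the list. The genes outside had shares of 37.8% on IV and 43.3% on V and of 80.8% and 81.8% on II and III, a wider range than the nested genes.

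Part of the 109 nested genes without a conservative summit had a peak in the longer ranked lists. A summit of the pooled ranked list lay at 68 of them, with a median rank of 8541, and at 249 of all 290 (85.9%), against 82.5% of the 612 tRNA genes. Outside, such a summit lay at 72 of the 138 genes without a conservative one. The pooled ranked list holds 95232 peaks, and how often a summit of it falls this near by position alone was not counted. None of the 68 had an irreproducible discovery rate (IDR) of 0.01 or less and 20 had one of 0.05 or less. The conservative list follows IDR, so the absence at 0.01 or less may only restate its limit. The other 41 had no pooled ranked summit, and 17 of these had none in either replicate. At 11 of the 109 a conservative summit lay beyond 200 bp but within 500 bp.

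The conservative list follows IDR and not signal alone, so the signals on either side of its limit overlap. The lowest signals inside were those of ZK970.t4 (50.8) in the mitochondrial protease gene clpp-1, T19C4.t1 (70.4) in the G protein gene gpa-1, R11B5.t3 (73.2), D1073.t1 (73.6) and F22B7.t4 (75.4). The highest outside were F42G10.t1 (85.9), Y119D3B.t1 (81), C06B8.t2 (80.4), Y43F4A.t2 (79.5) and F18C5.t1 (77.7). F42G10.t1 had 56.7 in replicate 1 and 28.1 in replicate 2, with a pooled −log10 IDR of 1.83, where ZK970.t4 had 41.4 and 42.1 with 2.45.

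The first 10 nested genes in genome order without a pooled ranked summit were Y92H12A.t1, F33D11.t1, K02B12.t1, DY3.t2, T22A3.t4, T22A3.t2, T22A3.t3, W03C9.t1, Y37B11A.t2 and K03F8.t1. Missing from the pooled ranked list did not mean missing from the replicates. K02B12.t1, a glutamate tRNA gene in zhp-3, had a signal of 82.6 in replicate 1 and 73.9 in replicate 2, and was the 1 unoccupied nested gene in both replicates' own lists. T28B4.t1, a phenylalanine gene in fbxl-4, had 142.6 in replicate 2 and no ranked summit in replicate 1, and it was singled out after its values were seen.

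A few occupied genes ranked far apart in the replicates. B0244.t1, a glycine gene in ida-1, a gene of dense-core vesicles, ranked 567 in replicate 1 with 60.6 and 39287 in replicate 2 with 16.8. It shares its conservative peak with its neighbour B0244.t3, whose strongest summit in replicate 2 ranked 3880 with 34.1. C12C8.t1 and C12C8.t6, glycine genes in uggt-2 that share a peak, ranked 6820 with 32.1 and 302 with 79.3. K04A8.t2 ranked 205 with 93.1 and 4370 with 33.3, and F09B9.t2, an arginine gene in the actin-binding protein gene unc-115, ranked 364 with 73.8 and 4746 with 32.8. Their conservative summits had signals of 97.7 to 126.6, below the nested median of 133.7.

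Genes for the machinery that transcribes and matures tRNA were examined by their promoters. Of 18 listed genes for RNA polymerase III subunits, its factors and tRNA modification, 17 were matched by name and 1 had a conservative summit in the promoter window, or 5.88%, beside 2.55% of all protein-coding genes. That gene was rpc-2, which encodes a large subunit of RNA polymerase III, with a signal of 91.5. The genes brf-1 of TFIIIB, tftc-1, tftc-3 and tftc-5 of TFIIIC, tbp-1 for the TATA-binding protein and mafr-1, the ortholog of the polymerase III repressor MAF1, had none.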

How the data were processed

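ChIP-seq peak lists of 2 biological replicates were analysed, as ranked and thresholded lists of each replicate and of both together, on assembly ce11 per the labels. The authors called the peaks per replicate and on combined replicates. The deposited signal value of each peak is the peak caller's own and is not scaled between lists. The deposited score of each peak was set by the authors from its IDR, and a deposited −log10 IDR in the ranked lists was likewise read as a score. The sources used here do not name an aligner or a peak caller. The sequencing depth is unknown from peak lists.

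Genes came from Ensembl release 115, and isotypes and sequence from the RefSeq annotation and sequence of WBcel235. A tRNA gene was nested when it lay wholly within a protein-coding span, and the 200 bp were read as the reach for summits around the tRNA gene. Positions are 1-based. The strongest peak within reach gave a gene's signal. Shares carry exact (Clopper-Pearson) 95% intervals, which cover counting only. With 1 group no significance test was made, and the replicates' own lists stand for the replicate spread. The rule of a 200-bp reach was run on planted summits, apart from the code that made the counts. Its outcome was fixed by where they were planted, so it is no test of the counts.

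Named were the 12 nested genes of highest signal, hosts with 3 or more nested genes, the first 10 without a pooled ranked summit, the 3 largest mixed families, the 5 with the largest rank gap between replicates, the 5 genes on each side of the list's limit, the 7 that touch an exon and the extreme isotypes. Further genes were named after their values were seen, among them the printed genes and pairs, the genes named for the B box match, T28B4.t1 and the tryptophan family. The members and lists were chosen with earlier results of these data known. The alternatives tried were the authors' optimal list, each replicate's own list, peaks of higher signal, other reaches, peak overlap of at least 1 bp, other rules of membership and clusters counted once. The scripts used Python 3.11.15, numpy 2.4.6, scipy 1.17.1 and matplotlib 3.10.9.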

Additional observations from a re-analysis of the deposited data

How the results depend on the processing

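The share of nested tRNA genes with a summit, 62.4%, was 55.2% with conservative peaks at or above the median signal, 45.2% with summits inside the tRNA gene alone, 59.0% and 66.2% with a reach of 100 and 500 bp and 58.6% with peak overlap. With either replicate's own list alone, which leaves out the other replicate, it ranged from 41.7% to 45.9%. The share of the genes outside, 57.1%, was 50.9%, 39.8%, 53.1%, 61.5% and 54.7% under the same 5 settings, 60.3% with clusters counted once, and 39.1% to 42.2% with 1 replicate. The nested share was the higher under each of these settings for which both values are given. The share on the host's strand minus that on the opposite strand, −1.97 percentage points, was 0.260 in the authors' optimal list, so its sign turned, −7.54 with peaks of higher signal, −6.61 with summits inside the gene, −6.16 with clusters counted once, and −4.80 to −2.13 with 1 replicate. The share on X minus that on the autosomes, −1.43 points, turned to 3.17, 2.55, 3.80, 1.49 and 5.08 points with peaks of higher signal, summits inside the gene, a reach of 500 bp, spans extended by 200 bp and clusters counted once, and to 7.74 to 9.26 points with 1 replicate. The share of intronic genes minus that of genes touching an exon, −23.9 points, was −41.5 with summits inside the gene and −26.2 to −15.8 with 1 replicate. It was not computed for extended spans, where genes beyond the host have no place in it. The median position of the summit, 14 bp, was 11 to 15 bp with 1 replicate. The causes were not tested. The median signal stayed between 133.7 and 133.9 under the settings tried. No paired analysis was possible because there is a single group. The thresholds of the replicates' own lists differ from that of the combined list, so a lower share there also reflects shorter lists, and the depth behind each list is unknown.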
